A study of Mus musculus with 1 sample.

Results

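The genes described here make up the core machinery of apoptosis: the BCL2 family, the caspases and their inhibitors, and the adaptors of the death receptors. They were measured on 1 Affymetrix expression array in cells of the ovarian surface epithelium, taken from mice that were wild type and 3 months old. A total of 43 genes were chosen by name, with earlier results of these data known. Every probe set whose single gene symbol was that of a chosen gene was used. Of the 43 genes, 41 had such a probe set, with 103 probe sets in all, out of 18193 named genes and 34945 named probe sets. Ripk1 and Bnip3l had none and were not analysed here as genes. The series design names 3 genotypes, and the other genotypes were not analysed here. There was no replicate, so no value has an error and no test between groups was possible. The sources used here give neither the strain nor the number of animals behind the RNA.

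Apoptosis runs along a pair of routes that meet at the caspases. In the mitochondrial route, BH3-only proteins sense stress and bind the anti-apoptotic BCL2 proteins, which frees BAK and BAX to open the outer mitochondrial membrane and release cytochrome c, and APAF1 and caspase-9 then start the cascade. In the receptor route, ligands such as TNF or FAS ligand assemble adaptors and caspase-8 at the cell membrane, and CFLAR and the inhibitor of apoptosis proteins (IAPs) hold that step in check. The ovarian surface epithelium covers the ovary and is torn and repaired at each ovulation, when cells near the rupture site die.

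Nearly all of the measured genes were above background in these wild-type cells. The background limit was an intensity of 46.5, the 95th percentile of 126 probe sets for keratin-associated proteins and for receptors of smell, pheromones and bitter taste, and a gene passed it by its brightest probe set. Of the 41 genes 39 passed, or 95.1%, whereas 62.8% of all named genes did. The list was drawn up with earlier results of these data known, so this difference is a description and no test. Of 24 other measured genes of apoptosis, given below, 16 passed, or 66.7%. Among the 41 genes, those below the limit were Bcl2l10 and Casp1. The median level was 8.96 on the log2 scale, against 7.06 for all named genes. Of the 103 probe sets 70 passed, or 68.0%, and 55.1% of all named probe sets did. These are descriptions of 1 array, and the level of a probe set also depends on its affinity, so levels were not compared between genes. The array measured RNA, which does not show the amount or activity of a protein.

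The genes with few probe sets were also mostly above the limit. Of 12 genes with 1 probe set 10 passed, or 83.3%, beside 47.3% of the 9183 named genes with 1 probe set. All 15 genes with 2 probe sets passed, beside 71.8% of named genes with 2, and all 9 with 4 or more passed, beside 90.2%. Over 4 times the limit lay 34 of the 41 genes, or 82.9%, against 45.4% of all named genes. Over 8 times the limit lay 26, or 63.4%, against 33.4%. Over 16 times the limit lay 13, or 31.7%, against 20.5%, and over 32 times the limit 5, or 12.2%, against 10.7%. The share of these genes thus lay above the share of all genes at each of these levels, and close to it only over 32 times the limit.

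**Figure D1:**
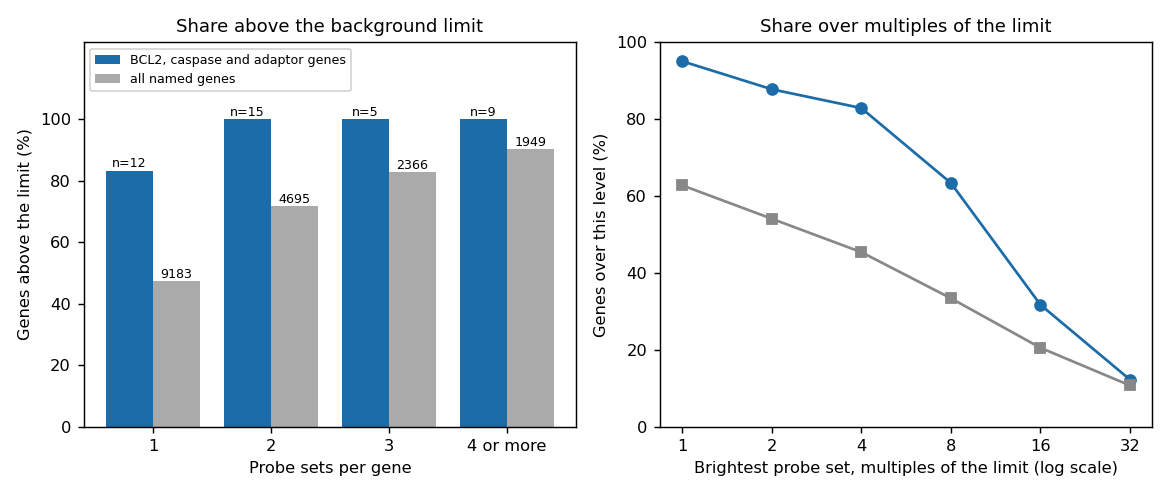
Left, percent of genes whose brightest probe set exceeded the background limit, by the number of probe sets per gene, with the number of genes over each bar. Right, percent of genes whose brightest probe set exceeded 1 to 32 times the limit (log axis); blue stands for the 41 apoptosis genes and grey for all 18193 named genes, and the lines go from 95.1% and 62.8% to 12.2% and 10.7%.

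Markers of the labelled cell type were all present. The marker counts given here stand beside 62.8% of all named genes. All 10 markers of surface epithelium and mesothelium were above the limit, with brightest probe sets between 2047 and 20836, among them the simple-epithelial keratins Krt7 and Krt18 at 8204 and 3377. Of 8 macrophage markers 7 passed, between 47, just over the limit, and 527, and Itgam, an integrin of myeloid cells, had 22. All 6 measured neutrophil and lymphocyte markers were below the limit, between 12 and 46, and so were all 6 oocyte markers, between 7 and 42. Of 5 measured granulosa cell markers 4 passed, between 58 and 1438, while the gonadotropin receptor gene Fshr did not, at 34. A bulk level does not show which of these cells held a transcript.

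Of the genes of anti-apoptotic BCL2 proteins 4 of 5 were above the limit. This count and those of the other roles below stand beside 62.8% of all named genes. Mcl1, a short-lived protein that holds BIM and BAK in check, had 6 probe sets at 748, 1837, 1948, 2500, 3072 and 3664, all above background. Bcl2, the founding member, had 19, 29, 77, 80 and 251, with 3 of 5 probe sets above the limit. The probe sets of Mcl1 therefore gave one answer and those of Bcl2 did not.

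Bcl2l1, which encodes BCL-XL, had 18, 29, 95 and 721, with 2 of 4 above the limit. Bcl2l2, which encodes BCL-W, had 32, 93, 118 and 731, with 3 of 4 above. Bcl2l10, a family member best known from oocytes, had 18 on its only probe set and was below background, as were the 6 oocyte markers.

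Of the multi-domain members of the family, the 3 measured here were above the limit, and Bax was not analysed here. Bak1, which forms pores in the outer mitochondrial membrane, had 277 on 1 probe set and 28 on the other. Bok, a related protein of the reproductive organs, had 429. Bcl2l13, a mitochondrial outer membrane protein also linked to mitophagy, had 288 and 420, so each of its probe sets was above background.

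All 6 BH3-only genes were above the limit, but they divided into 4 whose brightest probe set had 203 or more and 2 near background. Bcl2l11, which encodes BIM, a binder of all anti-apoptotic members, had 42, 43, 141, 649 and 681. Bad, which is switched off by phosphorylation under growth factor signals, had 486 and 816. Bid, which caspase-8 cleaves to join the receptor route to the mitochondrion, had 15, 52 and 203. Only Bad among these had every probe set above the limit.

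Bmf, a BH3-only protein tied to the cytoskeleton and to loss of attachment, had 492 on 1 probe set and 29 and 31 on the others. The set at 492 is marked _s_at, for probes that may be shared between genes, and without marked sets Bmf was below the limit, at 4.86 on the log2 scale. Bik had 24, 54 and 69. Hrk, best known from neurons, had 43 and 71. Bik and Hrk lay 0.57 and 0.61 over the limit on the log2 scale, and both were below a limit set at the 99th percentile, an intensity of 84.8.

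Bnip3, a mitochondrial protein induced by low oxygen and a receptor for mitophagy, had 9305 on its only probe set. This lay 7.64 over the limit on the log2 scale. Its relative Bnip3l was represented only by 3 probe sets that also carry the symbol of a pseudogene, and these could not be assigned to the gene.

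**Figure D2:**
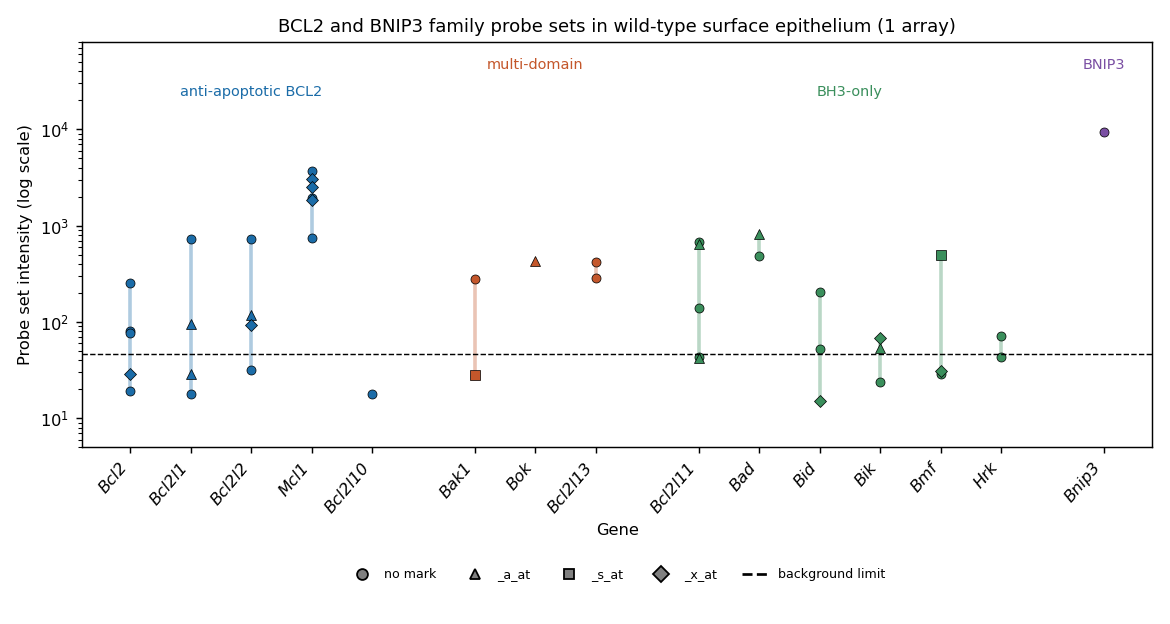
Intensity of every probe set (log axis) of the BCL2 and BNIP3 family genes on 1 array, with 1 column per gene, a line from its lowest to its highest probe set, and a symbol for the mark in the probe set identifier. The dashed line is the background limit of 46.5; all 6 probe sets of Mcl1 lie above it, the single probe set of Bcl2l10 lies below it at 18, and most other genes have probe sets on both sides.

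All 4 apoptotic caspases were above the limit, with all 7 of their probe sets. Casp8, the initiator of the receptor route, had 1095. Casp9, the initiator of the mitochondrial route, had 51, 106 and 231. Casp2, an initiator activated after DNA damage in the PIDDosome complex, had 498. Casp6, an executioner that cleaves lamins, had 79 and 2544, and its probe sets had an SD of 3.54 on the log2 scale. This was the only role with more than 1 gene in which every probe set was above background. The probe sets of Casp9 at 51 and of Casp6 at 79 were below a limit set at the 99th percentile, an intensity of 84.8.

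The caspases of inflammation were divided. Casp1, which processes interleukin-1 beta and interleukin-18, had 26 and was below background. Casp4, which senses lipopolysaccharide inside the cell and is also known as caspase-11, had 343. Casp12, an endoplasmic reticulum caspase, had 881 and 980. Macrophages, whose markers are given above, are a known source of Casp1 and Casp4, and their part in these levels was not tested. Casp14, a caspase of the cornified epidermis, had 22 on an unmarked probe set and 151 on 1 marked as open to cross-hybridisation. Of 5 epidermal markers 2 were above the limit, or 40.0%, beside 62.8% of all named genes. Krt10 had 177, Lor had 22, 32 and 50, and Krt1 had 20.

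All 4 IAP genes of the chosen list were above the limit. Only 6 of their 16 probe sets were, beside 55.1% of all named probe sets. Of IAP family genes outside the list, Birc5 had 268, while Naip2 and Naip5 were below the limit, at 17 and 13. Of named genes with 4 or more probe sets, as Xiap and Birc6 have, 90.2% passed by their brightest. Birc2 (cIAP1), a ubiquitin ligase of the TNF receptor complex, had 820 on its single probe set. Birc3 (cIAP2), its paralog, had 33 and 472. Xiap, the direct inhibitor of caspases, had 7 probe sets at 9, 11, 11, 14, 46, 54 and 1161. Birc6, a very large ubiquitin ligase, had 12, 13, 24, 31, 124 and 1370. Xiap and Birc6 thus each rested on 1 bright probe set for most of their signal, and with the mean of its probe sets Xiap was below the limit, at 5.05 against 5.54 on the log2 scale.

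**Figure D3:**
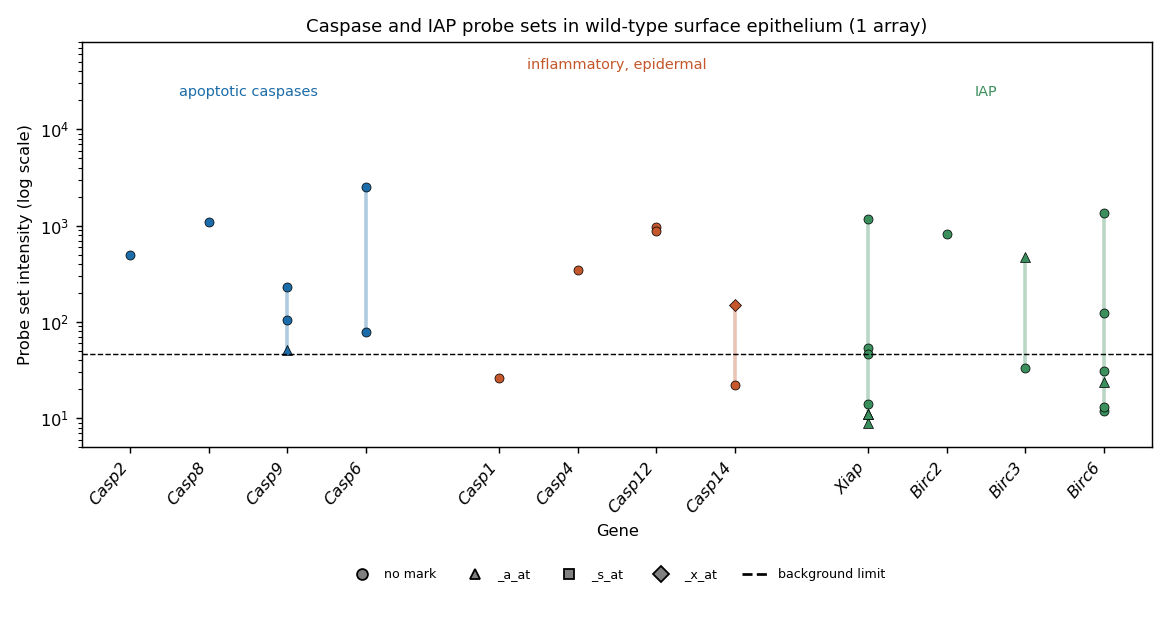
Intensity of every probe set (log axis) of the caspase and IAP genes on 1 array, 1 column per gene, with a line from the lowest to the highest probe set. All probe sets of Casp2, Casp8, Casp9 and Casp6 lie above the dashed limit of 46.5, Casp1 lies below it at 26, and 5 of the 7 probe sets of Xiap lie below it.

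Some of these genes are neighbours in the mouse genome. In the RefSeq annotation of GRCm38.p6, Casp1, Casp4 and Casp12 follow each other on chromosome 9 with no annotated gene between them, and Birc2 and Birc3 also lie side by side there. Bcl2l13 and Bid are adjacent on chromosome 6, and Cflar and Casp8 lie on chromosome 1 with 1 gene between them. Adjacent genes did not always fall on the same side of the limit, since Casp1 was below background and Casp4 and Casp12 above it.

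Bases just before annotated starts are shown for the 3 neighbouring caspases, which differ in their call, and for Bnip3 and Bcl2l11, whose starts are rich in CG pairs. They come from RefSeq, build GRCm38.p6, and run 5′ to 3′ on the strand of the gene, with every CG pair in capitals. Casp1 is from chr9:5298367-5298516 (+ strand), Casp4 from chr9:5308699-5308848 (+ strand), Casp12 from chr9:5345326-5345441 (+ strand), Bnip3 from chr7:138909507-138909656 (- strand) and Bcl2l11 from chr2:128125888-128126037 (+ strand).
Casp1: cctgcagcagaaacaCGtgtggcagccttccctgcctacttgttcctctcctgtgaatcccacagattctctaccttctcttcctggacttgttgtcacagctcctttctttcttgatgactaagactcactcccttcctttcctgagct
Casp4: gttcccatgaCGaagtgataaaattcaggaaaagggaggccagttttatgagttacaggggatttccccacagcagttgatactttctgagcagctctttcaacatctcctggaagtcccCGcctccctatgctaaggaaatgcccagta
Casp12: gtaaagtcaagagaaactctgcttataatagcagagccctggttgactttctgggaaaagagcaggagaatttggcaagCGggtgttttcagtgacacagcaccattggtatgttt
Bnip3: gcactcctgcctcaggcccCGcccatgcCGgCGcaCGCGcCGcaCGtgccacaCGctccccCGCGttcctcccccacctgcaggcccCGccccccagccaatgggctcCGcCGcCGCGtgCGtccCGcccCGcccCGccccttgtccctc
Bcl2l11: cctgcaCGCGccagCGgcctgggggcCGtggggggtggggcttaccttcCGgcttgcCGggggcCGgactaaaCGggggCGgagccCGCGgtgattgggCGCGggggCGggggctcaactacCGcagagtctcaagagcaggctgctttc

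The stretches of Casp1, Casp4 and Casp12 held 1, 2 and 1 CG pairs, and those of Bnip3 and Bcl2l11 held 19 and 15. The 3 caspases had like numbers of CG pairs although their calls differed. Windows of 300 bases, from 250 before to 50 after a start, were given for 49 starts of 38 of the 43 genes; Htra2, Tradd, Bnip3l, Bik and Bcl2l10 had no entry. The ratio of observed to expected CG pairs had a median of 0.71 in these windows and exceeded 0.6 in 30 of 49, or 61.2%. It exceeded 0.6 in 68.9% of windows of all named genes above the limit, in 26.0% of those of named genes not above it, and in 35.4% of all windows. The starts of the apoptosis genes were therefore near those of other genes above background in this respect.

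Short motifs were searched on both strands of the same windows. GGGCGG was found in 30 of 49 windows, or 61.2%, in 35.7% of all windows and in 63.1% of those of named genes above the limit. TATAAA was found in 2, or 4.08%, against 13.6% and 7.12%. CCAAT was found in 30.6%, against 37.4% and 37.3%, and ACGTG, the core of the hypoxia response element, in 20.4%, against 19.6% and 25.5%. ACGTG lay in 10 windows, and the printed stretches of both Bnip3, above background, and Casp1, below it, hold it. A p53 half-site was matched in 2 windows, 1 each of Bmf and Birc2, or 4.08%, against 8.36% and 6.74%. An NF-kB site was matched in 5 windows, or 10.2%, against 4.51% and 5.3%. These were windows of 4 genes, Bcl2l1, Bmf, Aifm1 and Casp4, the last with 2 overlapping windows. GGGCGG contains a CG pair, so its share moves with the CG content above, and a match is no evidence of binding.

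All 7 measured TNF receptor and adaptor genes were above the limit. Tnfrsf1a, the death domain receptor for TNF, had 1476. Tnfrsf1b, the second TNF receptor, which lacks a death domain and is frequent on leukocytes, had 644 and 43. Tradd, the adaptor that binds the death domain of TNFR1, had 38, 247 and 502, and Traf2, which brings in the cIAP ligases, had 199. Each of these 4 genes had a probe set above background, and Ripk1, another adaptor of this receptor, was not analysed here.

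Fadd, which recruits caspase-8, had 49 and 230. Cflar, which encodes cFLIP, the caspase-8-like regulator that restrains caspase-8, had 28, 66, 69, 168 and 674. Ripk3, the kinase of necroptosis, had 473. Mlkl, the pore-forming substrate of RIPK3, had 113 on 1 probe set, so both were above background.

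All 5 genes of mitochondrial proteins released in apoptosis were above the limit. Cycs, cytochrome c, had 14, 1076, 2364 and 3852. Cycs has many processed pseudogenes in the mouse genome, and what they add to these probe sets was not tested. Diablo, which relieves caspases of IAPs, had 28 and 794, and Htra2, a protease with the same property, had 451 and 518. Aifm1, a flavoprotein that also supports the respiratory chain, had 2168, and Endog, a mitochondrial nuclease, had 265 and 271. Cycs and Aifm1 also serve respiration in living cells.

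Of the DNA fragmentation factor genes both passed. Dffa, the inhibitor and chaperone subunit, had 39 and 164, and Dffb, the nuclease that caspases set free, had 37 and 64. Dffb lay 0.46 over the limit on the log2 scale and below a limit set at the 99th percentile.

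**Figure D4:**
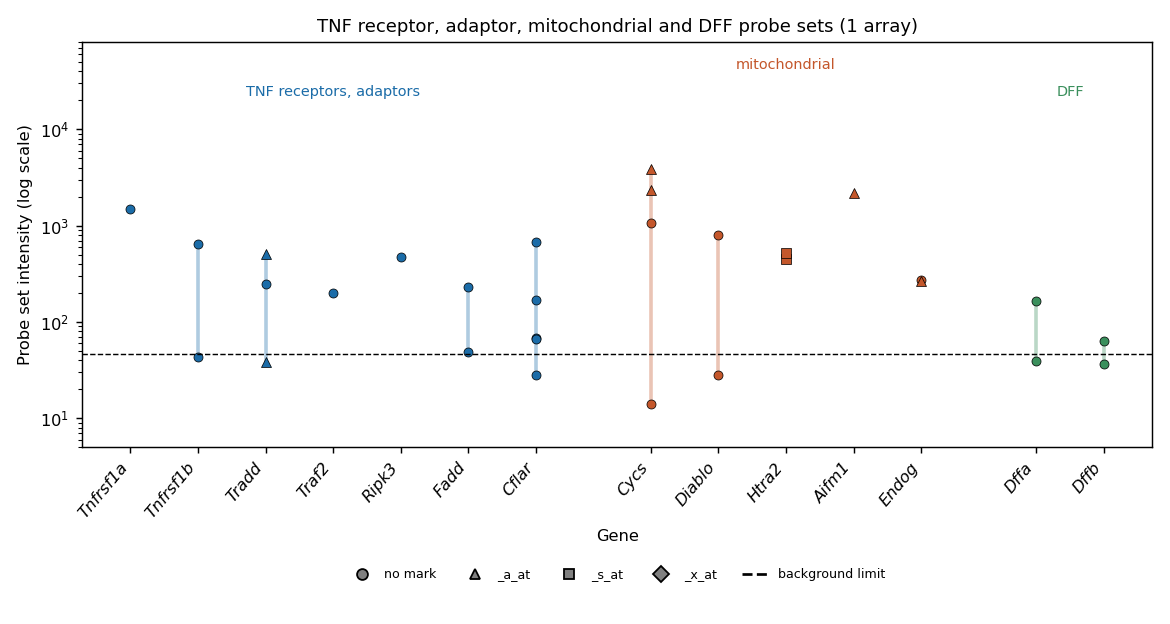
Intensity of every probe set (log axis) of the TNF receptor, adaptor, mitochondrial and DNA fragmentation factor (DFF) genes on 1 array, 1 column per gene, with a line from the lowest to the highest probe set. Every gene has a probe set above the dashed limit of 46.5, and Dffb has its brightest at 64.

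Probe sets of the same gene often disagreed. Of 29 genes with several probe sets, 9 had all of them above the limit and 20, or 69.0%, had probe sets on both sides, against 46.7% of the 9010 named genes with several. The named genes include some with every probe set below the limit, and the 29 include none, so these shares are not like for like. Judged by their lowest probe set, 19 of the 41 genes were above the limit, and 39.7% of all named genes were. The median SD between probe sets of a gene was 1.87 on the log2 scale, against 1.39 for named genes. The 9 genes with every probe set above the limit were Mcl1, Bcl2l13, Bad, Casp9, Casp6, Casp12, Fadd, Htra2 and Endog. Endog and Casp12 had SDs of 0.02 and 0.11, and Cycs 3.71. The array has no positions for its probe sets in the sources used here, so transcript variants could not be assigned to them.

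The other genes of apoptosis were divided. Of 24 measured genes 16 were above the limit, or 66.7%, with a median level of 6.99 on the log2 scale, against 62.8% and 7.06 for all named genes. Pmaip1 (NOXA) and Bbc3 (PUMA), BH3-only proteins that p53 induces, had 1699 and 225. Apaf1, the scaffold of the apoptosome, had 31 and 298, and Birc5, an IAP of dividing cells, had 268. Vdac1 and Vdac2, channels of the outer mitochondrial membrane, had 5942 and 6957 on their brightest. Pidd1 and Cradd, which assemble with caspase-2, had 79 and 222, and Parp1, a DNA break sensor that caspases cleave, had 32, 609, 760 and 808.

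The 3 death ligands measured were not above background. Fasl had 12 and 19, Tnfsf10, which encodes TRAIL, had 15, 17 and 22, and Tnf had 28. Of their receptors, Fas had 239, whereas Tnfrsf10b, the TRAIL receptor, had 20 and 24. Naip2, Naip5, Traf1 and Bcl2l15 were also below the limit, with 17, 13, 20 and 12 on their brightest.

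All 10 measured genes of the ubiquitin and NF-kB steps below the TNF receptor were above the limit, with a median of 9.23 on the log2 scale. For all named genes the share was 62.8% and the median 7.06. Rela, the transactivating NF-kB subunit, had 1703, and Tnfaip3 and Cyld, which remove ubiquitin and restrain the pathway, had 409 and 862 on their brightest. Sharpin, Rbck1 and Rnf31, the parts of the linear ubiquitin ligase, had 605, 597 and 209. Transcripts for each of these parts of the linear ubiquitin ligase were thus above background.

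Of 10 measured genes of necroptosis and pyroptosis 6 were above the limit, or 60.0%, a share near the 62.8% of all named genes. Gsdmd, the pore protein cut by caspase-1 and caspase-11, had 304, Gsdme, a related pore protein, had 606 on its brightest, and Pycard, the inflammasome adaptor, had 14, 16 and 1011. Il18, a substrate of caspase-1, had 1548. The inflammasome sensors Nlrp3 and Aim2 had 40 and 8. Il1b and Il1a, forms of interleukin-1, had 58 and 17, and Zbp1, a nucleic acid sensor of necroptosis, had 25 and 41.

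**Figure D5:**
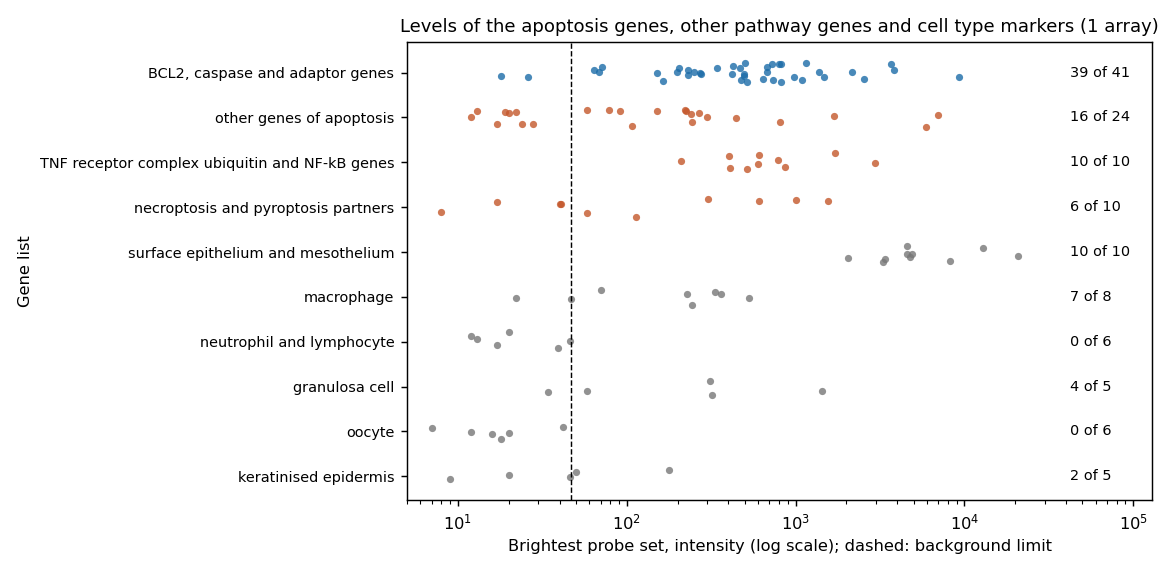
Intensity of the brightest probe set of each gene (log axis) for the 41 apoptosis genes (blue), 3 lists of other pathway genes (orange) and 6 lists of cell type markers (grey) on 1 array, with the dashed background limit of 46.5 and the count above it at the right. The apoptosis genes pass in 39 of 41 cases and the neutrophil and lymphocyte and the oocyte markers in none.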

How the data were processed

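The deposited table holds 1 intensity per probe set for 1 sample, as 45101 whole numbers from 6 to 32341 on a linear scale. The authors used affy and RMA, per the submitters' processing notes; the versions, the set of arrays normalized together and the return from log2 to linear values were not stated. RMA narrows differences at low intensity. Per the labels' protocols, biotinylated cRNA was made from 5 ug of total RNA.

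Probe sets were named through the platform annotation; 64 control sets, 932 with several symbols and 9160 with none were left out. All 41 gene numbers matched RefSeq symbols. Intensities were put on the log2 scale, and the brightest probe set gave a gene's level. The members and lists were chosen with earlier results of these data known, and any of their genes could be named, but of marker lists the first 3 measured; Itgam was added after its value was seen. Alternatives changed the limit, the background genes, the level and the probe sets. An array has no read depth, and 1 array gives no precision. The tools were matplotlib 3.10.9, pandas 2.3.3, NumPy 2.4.6 and Python 3.11.15.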

Additional observations from a re-analysis of the deposited data

Results flagged for a closer look

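Probe sets that carry the symbols of both Bnip3l and its pseudogene Bnip3l-ps entered no count of genes, and all 3 were above the background limit of 46.5. Their intensities were 5739, 3372 and 1392. The signal of the gene and that of the pseudogene cannot be told apart on them. Bnip3l encodes a mitochondrial receptor for mitophagy related to Bnip3.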

How the results depend on the processing

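Of 41 genes, 32 to 40 were above the limit under 8 of 9 alternatives, of 38 to 41 measured, while 49 to 89 probe sets passed, against 70. Under the same 8 alternatives 55.3% to 73.2% of all named genes passed, and 45.9% to 67.0% of all named probe sets. The 40 genes came with the 90th percentile, at which 73.2% of all named genes passed. Only the lowest probe set of each gene moved the total by over 1.5 times, to 19 of 41, beside 39.7% of all named genes. With it, counts were 1 of 5 for anti-apoptotic BCL2 proteins, 1 of 6 for BH3-only proteins, 1 of 4 for IAPs, 4 of 7 for TNF receptors and adaptors, 3 of 5 for mitochondrial proteins and 0 of 2 for DNA fragmentation factors. With the 99th percentile or genes of other organs as the background, 1 of 2 DNA fragmentation factors passed. Without marked probe sets (_a_at, _s_at or _x_at) 3 mitochondrial genes passed because only 3 were measured. Counting the shared probe sets for Bnip3l, chosen after seeing the data, gave 2 BNIP3 genes. Bcl2l10 was below the limit under all alternatives, and Casp1 under all but the 90th percentile, an intensity of 25.5. A total of 19 genes were above the limit under every alternative that measured them. Among the 19, Bok, Htra2 and Aifm1 were not measured without marked probe sets. Bok, Bnip3, Casp2, Casp8, Casp4, Birc2, Tnfrsf1a, Traf2, Ripk3 and Aifm1 had only 1 probe set each. For those genes the brightest, mean and lowest level were the same.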

Other observations

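The 103 probe sets differed in the kind of sequence record they were designed from. Of 33 designed from a RefSeq mRNA 28 were above the limit, or 84.8%, against 59.0% of all named probe sets of that kind. Of 19 from BC or AK cDNA records 13 passed, or 68.4%, against 56.9%. Of 51 from other records or with no record given 29 passed, or 56.9%, against 53.5%. By identifier, 48 of 70 unmarked probe sets passed, or 68.6% against 50.3% of all named unmarked sets. Of those marked _x_at 6 of 9 passed, or 66.7% against 64.6%. The shares lay below those of all named sets for _a_at, with 13 of 20 or 65.0% against 72.3%, and for _s_at, with 3 of 4 or 75.0% against 76.9%. Without the marked probe sets Bmf, Casp14, Birc3 and Bik were below the limit.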
